A study of Mus musculus with 18 samples.

Results

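The miR-10 family consists here of 4 mature miRNAs, mmu-miR-10a-5p, mmu-miR-10a-3p, mmu-miR-10b-5p and mmu-miR-10b-3p, which are the 2 arms of each of 2 hairpins embedded in Hox gene clusters. They are 4 of the 1966 miRNAs in the table and were found by name. All 4 were among the 726 miRNAs with at least 1 CPM (a library's reads scaled to a common total) in at least 3 of the 18 libraries. The family was chosen by its known levels in these same libraries, in adrenal gland and in both kinds of tumor, so that every difference between groups for the 4 members is given as a description without a test.

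miRNAs are short RNAs that guide Argonaute proteins to matching sites in mRNAs, mostly through their seed, the bases near the 5′ end. One arm of a hairpin is usually retained as the guide and the other, the passenger, is mostly degraded. Mir10a lies in the Hoxb cluster and Mir10b in the Hoxd cluster. Hox genes give cells their position along the body axis, and the miR-10 genes are expressed along that axis with their neighboring Hox genes. In cultured neuroblastoma cells both miR-10a and miR-10b are known to be induced by retinoic acid during differentiation, and miR-10b is known in carcinoma for its repression of HOXD10 and its link to invasion.

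The sequences are shown first because the guides of both hairpins have the same seed, so that the comparison between them rests on very few bases. Capitals mark bases 2 to 8, the seed, and the sequences are those of RefSeq for GRCm38.p6, which held all 4 members.
mmu-miR-10a-5p: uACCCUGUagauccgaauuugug
mmu-miR-10b-5p: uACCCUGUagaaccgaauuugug
mmu-miR-10a-3p: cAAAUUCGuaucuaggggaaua
mmu-miR-10b-3p: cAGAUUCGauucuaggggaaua
The 5p arms shared the seed ACCCUGU and differed at 1 of 23 bases, U12A, where the position is counted from the 5′ end, the miR-10a base stands first and the miR-10b base last. The 3p arms differed at 3 of 22 bases, A3G, U9A and A10U, and the first of these lies in the seed, so that their seeds AAAUUCG and AGAUUCG were not the same. A read of a 5p arm can be given to one hairpin only if it covers base 12 without an error there. How the authors treated reads that match several places is not given in the sources used here.

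In GRCm38.p6 the Mir10a hairpin lies on the forward strand at chr11:96317165-96317274. RefSeq places it within the span of Hoxb3 and 993 bp from Hoxb4. In the GENCODE annotation, which is of GRCm39, no transcript on the same strand spanned it. Mir10b lies on the forward strand at chr2:74726070-74726137, within the RefSeq spans of Hoxd3 and Hoxd4. It was intronic in all 3 GENCODE transcripts that spanned it on its strand, 1 of Hoxd3 and 2 of Hoxd4. The endogenous Igf2bp1 gene lies on the same chromosome as Mir10a, at a distance of 311 kb.

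The study induced neuroblastoma in mice, a tumor of the sympatho-adrenal lineage, and asked how the RNA-binding protein IGF2BP1 acts alone and together with the transcription factor MYCN. AG are 3 wildtype adrenal glands, labelled CRE -. TI (T_I in the labels) are 7 tumors with the IGF2BP1 transgene and CRE +, of which 6 are labelled IGF2BP1 +/+ and 1 IGF2BP1 +/-, and TIM (T_IM) are 8 tumors labelled IMP1/MYCN, CRE +. Both transgenes sit in the Rosa26 locus and are switched on by iCRE driven by Dbh, a gene of catecholamine-producing cells, so that expression starts in adrenal gland and peripheral nerves. The IGF2BP1 transgene lacks its native 3′ UTR, where miRNAs would bind. By label 1 TI and 2 TIM tumors came from the adrenal gland and 1 TIM tumor from the spine, the rest being given as tumor only. No age or strain is given in the labels. The table's columns name the group but not the mouse, so that the +/- tumor and the tumor sites cannot be matched to a library. The paper reports more tumors than mice for the genotype with both transgenes, so that some TIM libraries may come from the same mouse. All fits treated each library as independent. Libraries are numbered within their group in the order of the table.

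Libraries held 21644743 to 23332704 miRNA reads in AG, 11802837 to 21268124 in TI and 11641696 to 23435621 in TIM. Levels are CPM on the library total scaled by its TMM factor, which corrects totals for a few miRNAs that take many reads. This factor was 0.927 to 0.991 in AG, 0.700 to 0.934 in TI and 0.802 to 1.85 in TIM. In TI miR-148a-3p alone took 2.29% to 61.9% of a library, against 4.19% to 6.94% in AG and 6.53% to 44.2% in TIM, and TI 5 was the library with the lowest share. AG is whole tissue and the tumors are bulk tissue, in which fewer cells of a type and less RNA per cell cannot be told apart.

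mmu-miR-10a-5p, the guide of the Hoxb hairpin, was one of the most abundant miRNAs of the adrenal gland and was far lower in both tumor types. It had 101577 CPM in AG 1, 47637 in AG 2 and 35995 in AG 3, where it ranked between place 3 and place 10 of all miRNAs. In TI it had 264 CPM in the lowest library (TI 6), 1838 in the median and 4150 in the highest (TI 5). In TIM it had 984 CPM in the lowest library (TIM 4), 1737 in the median and 5142 in the highest (TIM 2). All tumor libraries lay below all AG libraries, and TI and TIM overlapped in part. TI 6, TI 1 and TI 3 lay below the lowest TIM library, the last with 977 CPM, and TIM 2 lay above the highest TI library. The median was 25.9-fold lower in TI and 27.4-fold lower in TIM than in AG. Mean CPM ± SD was 61736 ± 34991 for the 3 glands, 1843 ± 1282 for the 7 TI tumors and 2285 ± 1422 for the 8 TIM tumors. On the log2(CPM + 1) scale the difference was -5.32 for TI against AG (SE 0.66), -4.81 for TIM against AG (SE 0.64) and 0.50 for TIM against TI (SE 0.49). The place of miR-10a-5p in a library fell to between 30 and 118 in TI and to between 29 and 61 in TIM.

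mmu-miR-10a-3p, the passenger of the same hairpin, was much less abundant and was ordered by group in the same way. AG 1, AG 2 and AG 3 had 319, 165 and 141 CPM. TI ranged from 2.18 CPM (TI 6) through a median of 5.85 to 14.7 CPM (TI 5), and TIM from 3.04 CPM (TIM 4) through a median of 5.29 to 16.6 CPM (TIM 2). The libraries at both ends were thus those of the 5p arm. The lowest value rested on 24 reads and the highest TI value on 275. The log2 difference was -4.95 for TI against AG (SE 0.52), -4.69 for TIM against AG (SE 0.51) and 0.27 for TIM against TI (SE 0.39). Every TI library lay below every AG library for both miR-10a arms, which also held for 24.4% of all 726 miRNAs, and every TIM library did so too, as for 22.0% of all. These members were selected on that contrast, and nothing is read from the count.

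AG 1 was the highest adrenal gland for all 4 members. Without AG 1 the log2 difference of miR-10a-5p was -4.89 for TI and -4.38 for TIM. AG 1 also held the most miR-122-5p, a miRNA of hepatocytes, with 2592 CPM against 1169 and 780 in the other two glands. The part of such tissue in the level of the family was not tested.

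**Figure D1:**
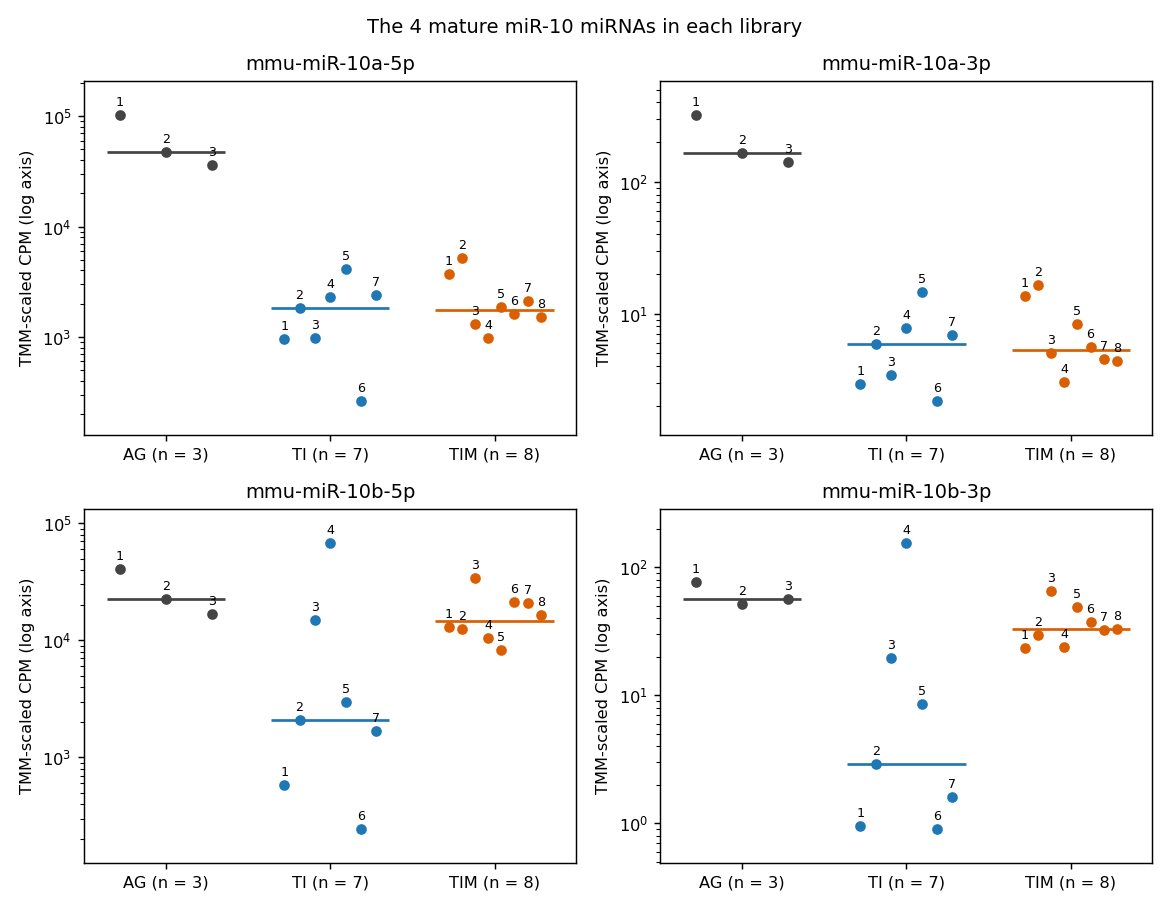
TMM-scaled CPM (log axis) of each mature miR-10 miRNA in AG (n = 3), TI (n = 7) and TIM (n = 8). Points are libraries with their number, lines are group medians. Both miR-10a arms lie lower in all tumor libraries than in AG, while miR-10b-5p spans 246 to 67849 CPM in TI and 8213 to 34309 CPM in TIM.

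mmu-miR-10b-5p, the guide of the Hoxd hairpin, behaved unlike its miR-10a counterpart. In AG it had 40549 CPM in AG 1, 22394 in AG 2 and 16642 in AG 3. In TIM it was lower in the median, with 8213 CPM in the lowest library (TIM 5), 14667 in the median and 34309 in the highest (TIM 3). Of the 8 TIM libraries, 3 lay within the range of AG and 5 lay below all glands. In TI it was spread over a 276-fold range, and all 7 values are therefore given. TI 6 had 246 CPM and TI 1 had 581 CPM. TI 7, TI 2 and TI 5 followed with 1695, 2066 and 2999 CPM. TI 3 had 14873 CPM, just below the lowest gland, and TI 4 had 67849 CPM, above all glands and all TIM libraries. Its place above TIM 3 rests on the TMM factor, 0.854 in TI 4 and 1.80 in TIM 3. As a share of all reads TIM 3 held slightly more. In TI 4 miR-10b-5p was the 4th most abundant miRNA, in TI 6 it held place 127, and in TIM it held places 5 to 26.

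For miR-10b-5p the mean CPM ± SD was 26529 ± 12478 over the 3 glands, 12901 ± 24752 over the 7 TI tumors and 17134 ± 8353 over the 8 TIM tumors. The SD of TI exceeded its mean, and the TI median of 2066 CPM was 7.10-fold lower than that of TIM. The log2 difference was -3.12 for TI against AG (SE 1.13), -0.66 for TIM against AG (SE 1.11) and 2.45 for TIM against TI (SE 0.85). Each SE pools the spread of all 3 groups, whose SDs on this scale were 0.65 in AG, 2.74 in TI and 0.66 in TIM. The SE of TIM against AG therefore does not describe the spread of these groups alone. Settings other than a library left out gave -0.71 to -0.07 for TIM against AG. TI and TIM nevertheless overlapped, since TI 3 and TI 4 lay within or above the TIM range. The size of the TI difference depended on the scale. On the recovered reads edgeR gave -1.20 and DESeq2 gave -1.19 for TI against AG, and 0.60 and 0.56 for TIM against TI. Without TI 4, which held most TI reads of this miRNA, the log2(CPM + 1) difference became -3.88 for TI against AG and 3.21 for TIM against TI.

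mmu-miR-10b-3p, the passenger of the Hoxd hairpin, had the same 2 high TI libraries. AG 1, AG 2 and AG 3 had 77.2, 51.5 and 56.4 CPM. TI ranged from 0.907 CPM in TI 6 (10 reads) through a median of 2.92 to 155 CPM in TI 4 (2564 reads), with TI 3 second at 19.5 CPM. TIM ranged from 23.2 CPM (TIM 1) through a median of 32.8 to 65.0 CPM (TIM 3). All TIM libraries lay above the 6 TI libraries other than TI 4, and 7 of the 8 lay below all glands. The log2 difference was -3.07 for TI against AG (SE 0.96), -0.79 for TIM against AG (SE 0.94) and 2.28 for TIM against TI (SE 0.72). Leaving out TI 4 gave -3.81 for the first and 3.02 for the last of these. With edgeR on the recovered reads these 2 differences were -1.39 and 0.65, and with DESeq2 -2.71 and 1.95. Within TI the order of the 7 libraries was the same for both miR-10b arms (Spearman rho of 1, n = 7).

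The balance between the 2 hairpins was compared within each library, where the scaling factor cancels. Ratios were taken of reads of the same arm, which differ little in length and base composition. In AG miR-10a-5p exceeded miR-10b-5p by 2.51-fold in AG 1, 2.13-fold in AG 2 and 2.16-fold in AG 3. In all 8 TIM libraries miR-10b-5p was the more abundant, by 2.43-fold in TIM 2, 10.3-fold in the median and 26.0-fold in TIM 3. TI was split. Of its 7 libraries, 4 had more miR-10a-5p, by between 1.07-fold (TI 6) and 1.66-fold (TI 1), and TI 2 was near balance with 1.12-fold more miR-10b-5p. TI 3 and TI 4 had 15.2-fold and 29.4-fold more miR-10b-5p, which lay within and above the TIM range.

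As a share of the reads of both 5p arms, miR-10a made up 68.0% to 71.5% in AG, 3.29% to 62.4% in TI and 3.71% to 29.2% in TIM. The 95% Wilson interval of a library, which covers counting error only, was 50.4% to 53.0% in the shallowest case, TI 6. In TI 4 it was 3.25% to 3.32%. The differences between the lowest and the highest library of TI and of TIM thus far exceeded counting error. Some libraries had overlapping intervals, such as TIM 4 and TIM 8, both with 8.41% to 8.63%. The 3p arms, read independently of the 5p arms, gave a similar picture. miR-10a-3p exceeded miR-10b-3p in 3 of 3 AG libraries, 5 of 7 TI libraries and 0 of 8 TIM libraries, and the TI exceptions were again TI 3 and TI 4, with 5.67-fold and 19.9-fold more miR-10b-3p.

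**Figure D2:**
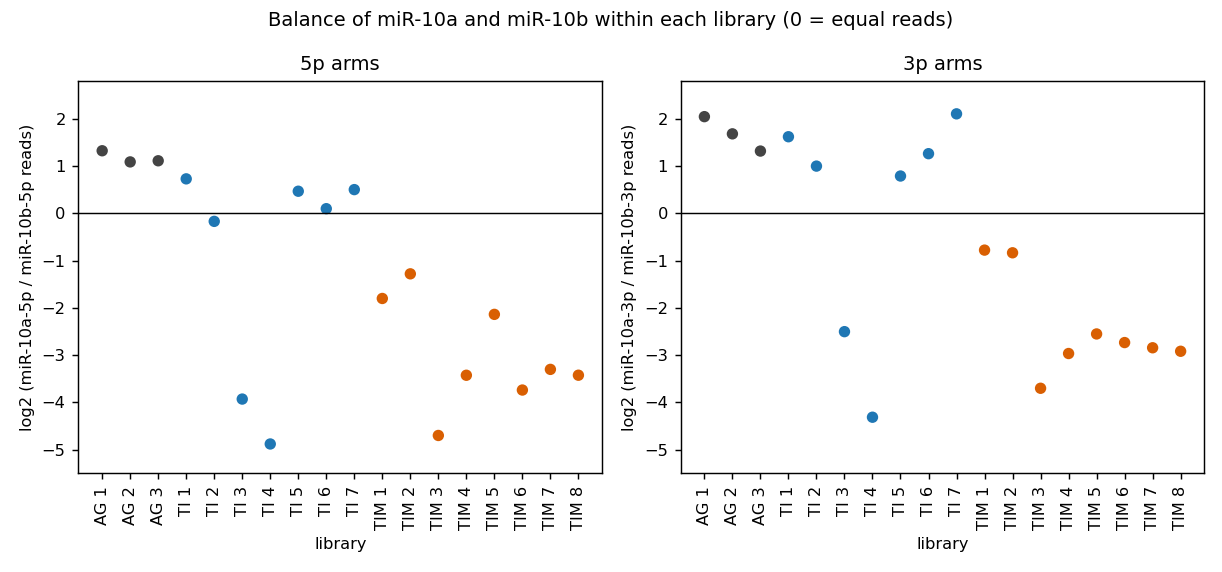
log2 ratio of miR-10a to miR-10b reads in each library for the 5p arms (left) and the 3p arms (right), with AG in grey, TI in blue and TIM in orange. The line at 0 marks equal reads. All AG libraries lie above it, all TIM libraries lie below it, and TI 3 and TI 4 lie with TIM for both arms.

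Taking both 5p arms as 1 seed family, the summed level was 52638, 70031 and 142127 CPM in AG. It was 510 CPM in the lowest TI library (TI 6), 4098 in the median and 70154 in the highest (TI 4). In TIM it was 10081, 17726 and 35630 CPM for the lowest, median and highest library. On this scale all TIM libraries lay below all glands for the shared seed, while TI 4 lay within the range of AG. Of all 726 single miRNAs, 22.0% also had every TIM library below every gland. For the sum this order rests on the TMM factor, which was 1.80 in TIM 3 and 0.939 in AG 3. As a share of all reads, without that factor, TIM 3 lay above AG 3. TI 4 reached this sum almost entirely through miR-10b-5p.

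The ratio of guide to passenger was compared within each library in the same way. For Mir10a the 5p arm had 256 to 319 times the reads of the 3p arm in AG, 121 to 350 times in TI and 224 to 467 times in TIM. The lowest of these, in TI 6, rested on 24 passenger reads, and the next lowest TI library had a ratio of 283. For Mir10b the ratio was 295 to 526 in AG, 271 to 1063 in TI and 168 to 641 in TIM. The lowest was TIM 5, with 1096 passenger reads. Group means of the log2 ratio were 8.16, 8.08 and 8.26 for Mir10a in AG, TI and TIM, and 8.67, 9.10 and 8.82 for Mir10b. For Mir10a the level of either arm thus differed much more between AG and tumors than the ratio of the arms did.

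Among all 726 miRNAs, 3 had a lower log2 difference than miR-10a-5p for TI against AG, and 3 for TIM against AG. These numbers were 9 and 5 for miR-10a-3p, 33 and 235 for miR-10b-5p, and 37 and 219 for miR-10b-3p. For TIM against TI, 9 miRNAs had a higher difference than miR-10b-5p and 13 a higher one than miR-10b-3p. These places are on the log2(CPM + 1) scale, and edgeR put the 2 differences at 0.60 and 0.65. As the members were chosen by their levels, nothing is read from the places. The spread of miR-10b within TI was also among the widest. Its 5p arm had an SD of 2.74 on the log2(CPM + 1) scale over the 7 TI libraries, and 8 of 726 miRNAs had a larger one. The median SD of all miRNAs in TI was 0.62. In TIM the SD of miR-10b-5p was 0.66, close to the median of 0.62 there. miR-10a-5p had an SD of 1.30 in TI and 0.79 in TIM.

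**Figure D3:**
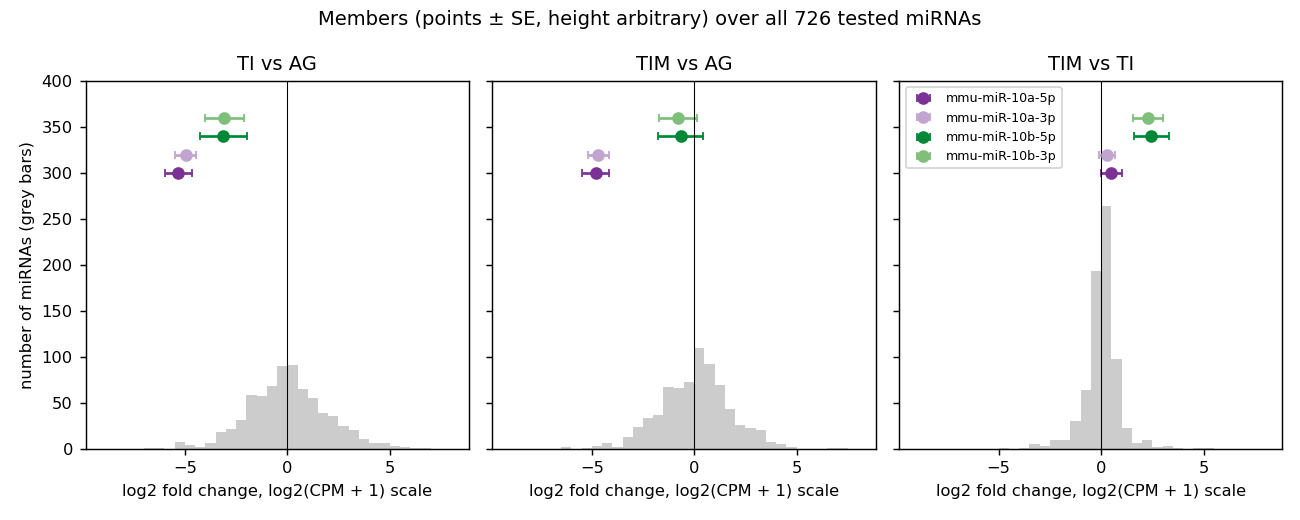
log2 fold change of the 4 members (points with SE, placed at an arbitrary height) over the distribution of all 726 tested miRNAs (grey bars, number of miRNAs) for TI against AG, TIM against AG and TIM against TI. The miR-10a arms lie near -5 in both comparisons with AG, and the miR-10b arms lie above 2 for TIM against TI. TI and TIM share the same AG libraries.

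Within the tumor groups the 2 arms of a hairpin went together more closely than the 2 hairpins. These correlations are across libraries on the log2(CPM + 1) scale, they share each library's scaling factor, and they are given as a description. Between miR-10a-5p and miR-10a-3p Pearson's r was 0.93 in TI (n = 7, rho 0.96) and 0.93 in TIM (n = 8, rho 0.81). Without the 2 libraries farthest from the median it was 0.98 and 0.65. Between the 2 arms of miR-10b it was 0.96 in TI (rho 1) and 0.48 in TIM (rho 0.40), and 0.94 and 0.85 without the 2 farthest libraries. Between miR-10a-5p and miR-10b-5p it was 0.52 in TI (rho 0.54) and -0.23 in TIM (rho -0.19), and 0.27 and 0.05 without the 2 farthest.

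Likeness was measured among 399 miRNAs whose mean reached 10 CPM. The profile over all 18 libraries most like that of miR-10a-5p was that of its own passenger strand, with a Pearson r of 0.98. It was followed by miR-30c-2-3p (0.97), miR-30d-5p (0.97), miR-365-3p (0.96) and miR-222-3p (0.96). All of these profiles contain the step from AG to tumor. After the group means were subtracted, miR-10a-3p again came first (0.91), followed by miR-191-5p (0.90), miR-30d-5p (0.88), let-7a-5p (0.86) and miR-30c-5p (0.86). miR-10b-5p was most like miR-10b-3p (0.96), and the next profiles were much less alike, those of miR-1981-5p (0.61), miR-34a-5p (0.61), miR-467a-5p (0.59) and miR-101b-3p (0.57). After subtraction the order was miR-10b-3p (0.93), miR-34a-5p (0.64), miR-21a-5p (0.53), miR-140-5p (0.52) and miR-412-5p (0.52). For miR-10b-5p the step from the first to the second place was thus from 0.96 to 0.61, against 0.98 to 0.97 for miR-10a-5p.

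The Hox clusters hold further miRNAs, and these were tested. miR-196 is made from 3 hairpins, Mir196a-1 in Hoxb, Mir196a-2 in Hoxc and Mir196b in Hoxa, and its targets include Hox mRNAs such as Hoxb8. miR-615 comes from Hoxc5. Of 7 mature miRNAs, 6 were tested (all but miR-196b-3p). By limma with Benjamini-Hochberg adjustment over all 726 miRNAs, 1 rose and 1 fell in TI against AG, 3 fell in TIM against AG and 2 fell in TIM against TI. Without any one of AG 1, AG 2 and AG 3, 1 of the 3 remained in TIM against AG, miR-196a-1-3p. Over all miRNAs 55.8%, 51.4% and 5.23% passed in these comparisons. The median log2 difference of the list was 0.55, -1.74 and -1.14, against -0.01, 0.18 and 0.06 over all miRNAs.

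miR-196a-1-3p is the 3p strand that identifies the Hoxb hairpin Mir196a-1, 51.9 kb from Mir10a, and it fell with miR-10a.
mmu-miR-196a-1-3p: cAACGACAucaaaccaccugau
It had 287, 138 and 116 CPM in AG 1, AG 2 and AG 3. The 5p strand miR-196a-5p had 95.8, 48.3 and 45.2 CPM there, so that miR-196a-1-3p was the more abundant strand in the glands. In TI it had no read in TI 6, which at 3 reads allows up to 0.272 CPM, 0.483 CPM in the median and 4.81 CPM in TI 5, and in TIM it had 0.0895 CPM (TIM 4), 0.883 CPM in the median and 4.27 CPM (TIM 1). The tumor libraries all lay far below the glands. The log2 difference was -6.59 for TI (SE 0.53, limma adjusted p = 1.9e-08) and -6.44 for TIM (SE 0.52, limma adjusted p = 2.0e-08), and 0.16 for TIM against TI (SE 0.40, limma adjusted p = 0.87). Its correlation with miR-10a-5p within TI was 0.69 (rho 0.82, n = 7) and within TIM 0.62 (rho 0.64, n = 8), and without the 2 libraries of farthest miR-10a-5p it was 0.20 and 0.39.

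The Hoxc hairpin of the same miRNA went another way. Its 3p strand miR-196a-2-3p had 1 to 9 reads per library in AG. It reached 2.84 CPM in the TI median and 3.96 CPM in TI 3, with 2 reads in TI 5, and had no read in 5 of 8 TIM libraries. It rose in TI against AG (log2 difference 1.38, SE 0.35, limma adjusted p = 0.0031) and was lower in TIM than in TI (-1.47, SE 0.26, limma adjusted p = 0.0021). Over the alternatives these differences ran from 0.49 to 3.72 and from -4.36 to -0.50, and the call against TI was lost with edgeR (adjusted p = 0.056). The 5p strand miR-196a-5p can come from either hairpin, so that its reads cannot be assigned to Hoxb or Hoxc. It had 45.2 to 95.8 CPM in AG, 17.7 CPM in TI 5 and 184 to 417 CPM in the other 6 TI libraries. In TIM it had 0.134 to 17.5 CPM in 7 libraries and 70.6 CPM in TIM 8. It was lower in TIM than in TI (log2 difference -4.50, SE 0.76, limma adjusted p = 0.0014) and lower in TIM than in AG (-2.65, SE 0.99, limma adjusted p = 0.034), though the latter call was lost without AG 1 (adjusted p = 0.14), AG 2 (0.070) or AG 3 (0.068). For TI against AG its difference was 1.85 (SE 1.01, limma adjusted p = 0.13).

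Of the remaining Hox-embedded miRNAs, miR-615-3p fell in TIM against AG, from 729 ± 44.5 CPM (SD, n = 3) to 197 ± 203 CPM (SD, n = 8), with a range of 3.58 to 574 CPM in TIM (log2 difference -2.92, SE 1.02, limma adjusted p = 0.024). This call was lost without AG 1 (adjusted p = 0.069), AG 2 (0.065) or AG 3 (0.072). It had 590 ± 354 CPM (SD, n = 7) in TI (-0.53, SE 1.04, limma adjusted p = 0.70). miR-196b-5p from Hoxa passed in no comparison (limma adjusted p of 0.37 to 0.84), but had 568 CPM in TIM 3 and 343 CPM in TIM 6 against at most 24.2 CPM in any other library. These were also the 2 TIM libraries with the most miR-10b-5p, at 34309 and 21445 CPM, and the correlation of both miRNAs within TIM was 0.77 (rho 0.71, n = 8), and 0.82 without the 2 farthest libraries. Within TI it was 0.33 (rho 0.18, n = 7), and 0.12 without the 2 farthest. miR-615-5p had at most 4.85 CPM and passed in no comparison. TI 5, the TI library with the most miR-10a-5p, had the least miR-196a-5p, miR-196a-2-3p and miR-196b-5p of all TI libraries. For miR-615-5p TI 5 and TI 6 both had 8 reads. TI 5 had the most miR-196a-1-3p of TI (4.81 CPM), and its 326 CPM of miR-615-3p lay above the 203 CPM of TI 2.

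**Figure D4:**
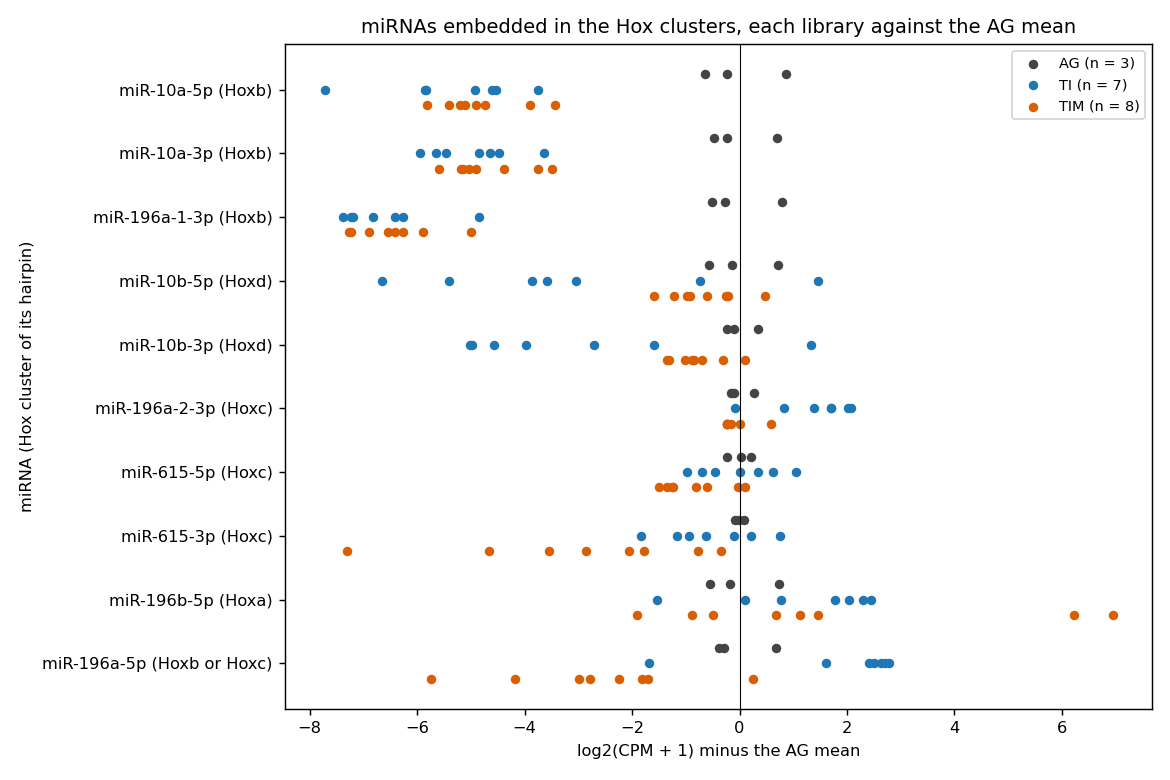
log2(CPM + 1) minus the AG mean for each library (points, AG grey, TI blue, TIM orange) for the miR-10 arms and the other tested Hox-embedded miRNAs, with the cluster of each hairpin. The Hoxb strands miR-10a-5p, miR-10a-3p and miR-196a-1-3p lie lower in all 15 tumor libraries than in AG, while the Hoxc and Hoxa miRNAs lie on both sides of the AG mean.

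Within 5 Mb of Mir10a the table held 14 mature miRNAs of 9 hairpins, of which 6 were tested, and within 5 Mb of Mir10b it held 0. By limma 3 of the 6 fell in TI against AG, 4 in TIM against AG and 1 in TIM against TI, where 29.3%, 25.9% and 1.79% of all 726 miRNAs fell. The last 2 counts include miR-196a-5p, whose reads can also come from the Hoxc hairpin. Its call in TIM against AG was lost without any one of the glands. With 6 miRNAs tested, nothing is read from these counts about the region. The median log2 difference of the 6 was -1.97, -2.86 and 0.12. Beside miR-196a-1-3p, both arms of Mir152, 533 kb away, fell in both tumor types. Mature miR-152-3p, a member of the miR-148 family, had a log2 difference of -3.48 in TI (SE 0.59, limma adjusted p = 9.7e-05) and -3.21 in TIM (SE 0.58, limma adjusted p = 0.00017). Differences for miR-152-5p were -3.40 (SE 0.53, limma adjusted p = 3.3e-05) and -3.07 (SE 0.52, limma adjusted p = 8.2e-05). miR-8103 and miR-6928-3p, at 747 kb and 4713 kb, had mean levels near 1 CPM and passed in no comparison (limma adjusted p of 0.083 to 0.99).

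miR-99a, miR-99b and miR-100 are the relatives of miR-10 outside the Hox clusters. Their seed differs, which is why their guides are shown.
mmu-miR-99a-5p: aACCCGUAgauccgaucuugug
mmu-miR-100-5p: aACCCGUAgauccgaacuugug
Both have the seed ACCCGUA, and the longest run shared with miR-10a-5p was 10 bases for miR-99a-5p and 11 bases for miR-100-5p. Of 6 mature miRNAs, 5 were tested (all but miR-100-3p). No relative rose, and 4 of 5 fell in TI and in TIM against AG by limma, with a median log2 difference of -0.95 and -0.94. Over all miRNAs 29.3% and 25.9% fell. In TIM against TI 0 passed by limma and 0 by edgeR, 1 passed by DESeq2, and 1 had an unadjusted p under 0.05. Without TI 4, TI 7, TIM 4 or TIM 8, 1 passed by limma in that comparison. Without AG 1, 1 of the 4 remained past the threshold in TIM against AG.

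miR-100-5p had 8113 to 9457 CPM in AG, 388 to 1128 CPM in TI and 504 to 8962 CPM in TIM. Its log2 difference was -3.75 in TI (SE 0.66, limma adjusted p = 0.00013), -2.05 in TIM (SE 0.65, limma adjusted p = 0.014) and 1.70 for TIM against TI (SE 0.49, limma adjusted p = 0.051). miR-99a-5p had 37151 to 47651 CPM in AG, 2137 to 13931 CPM in TI and 588 to 19560 CPM in TIM, with differences of -2.69 (SE 0.84, limma adjusted p = 0.011) and -2.70 (SE 0.82, limma adjusted p = 0.011). For miR-99b-5p they were -0.95 (SE 0.26, limma adjusted p = 0.0046) and -0.91 (SE 0.25, limma adjusted p = 0.0061), and for miR-99a-3p -0.87 (SE 0.30, limma adjusted p = 0.018) and -0.94 (SE 0.29, limma adjusted p = 0.012). Without AG 1 the TIM calls of miR-100-5p (adjusted p = 0.057) and miR-99a-5p (0.052) were lost. With totals that exclude miR-148a-3p those of miR-100-5p in TIM (0.069) and of miR-99b-5p in TI (0.24) and TIM (0.38) were lost, the last also without the TMM factor (0.093). The calls of miR-99a-3p were lost without AG 1 (adjusted p = 0.089 and 0.069), and with those totals (0.17 and 0.11), and that in TI also without AG 2 (0.057). miR-99b-3p had differences of -0.08 and -0.11 (limma adjusted p = 0.81 and 0.74).

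Since miR-10 is known from endothelium, kidney, muscle and stroma as well, markers of other cell types were read beside it. Of 40 markers 39 were tested (all but miR-133b-3p), and by limma 3 rose and 15 fell in TI against AG, 4 rose and 18 fell in TIM against AG, and 1 fell in TIM against TI. In either direction 55.8%, 51.4% and 5.23% of all 726 miRNAs passed, and 29.3%, 25.9% and 1.79% fell. The number of all 726 that rose was 192 in TI and 185 in TIM against AG, and 25 in TIM against TI. No marker was at 0 in a whole group. Both endothelial markers fell, miR-126a-3p by 3.63 on the log2 scale in TI (SE 0.46, limma adjusted p = 3.3e-06) and by 3.18 in TIM (SE 0.45, limma adjusted p = 1.3e-05). Their sum was 38529 to 46092 CPM in AG, 1704 to 6736 CPM in TI and 2428 to 8943 CPM in TIM. All 4 markers of kidney, liver and gut fell in both tumor types, and their sum went from 3598 to 7068 CPM in AG to 294 to 1188 CPM in TI and 382 to 1077 CPM in TIM. miR-122-5p fell by 6.44 and 6.16 (limma adjusted p = 4.3e-06 and 7.2e-06) and miR-192-5p had log2 differences of -2.95 and -2.47 (limma adjusted p = 8.6e-06 and 5.0e-05).

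Lists of stroma, blood and epithelium were counted in the same way. Of 4 fibroblast markers 4 fell in TI and 3 in TIM, with a sum of 2036 to 3241 CPM in AG, 338 to 1593 in TI and 234 to 1285 in TIM, and with miR-199a-5p at -2.14 (limma adjusted p = 0.0099) and -2.07 (limma adjusted p = 0.012). Of 4 smooth muscle and pericyte markers 2 and 4 fell, and their sum was 121588 to 209465 CPM in AG, 15823 to 171457 in TI and 16045 to 101185 in TIM. Of 5 leukocyte markers 3 and 4 fell, with a sum of 427 to 620 CPM in AG, 53.5 to 348 in TI and 69.5 to 215 in TIM. Of 7 epithelial markers 0 passed by limma in TI (1 at an unadjusted p under 0.05, 0 by edgeR, 2 by DESeq2). In TIM 1 fell, miR-203-3p (-2.44, limma adjusted p = 9.7e-05). Their sum was 1236 to 1762, 354 to 1952 and 180 to 530 CPM in AG, TI and TIM.

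None of the 3 erythroid, 3 tested striated muscle and 3 neuroendocrine markers passed by limma or edgeR in any comparison or had an unadjusted limma p under 0.05, and 1 striated muscle marker passed by DESeq2 in TIM against TI. Erythroid sums were 536 to 1942, 227 to 3721 and 97.1 to 2102 CPM in AG, TI and TIM, those of muscle 175 to 207, 46.6 to 344 and 77.5 to 22980 CPM, and those of the neuroendocrine list 49424 to 116747, 28860 to 271810 and 34541 to 244238 CPM. Of 4 neuronal markers, 3 rose in TI and 4 in TIM, with sums of 1011 to 1310, 5059 to 14295 and 6922 to 21894 CPM, and with miR-9-5p at 3.82 and 4.16 (limma adjusted p = 6.3e-07 and 2.4e-07).

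Within the tumors miR-10a-5p went with the endothelial marker miR-126a-3p, with a Pearson r of 0.90 in TI (rho 0.96, n = 7) and 0.73 in TIM (rho 0.69, n = 8), and of 0.84 and 0.59 without the 2 farthest libraries. For miR-10b-5p it was 0.54 in TI (rho 0.61) and -0.65 in TIM (rho -0.71), and 0.20 and -0.34 without the 2 farthest. With miR-148a-3p, which takes a large share of most TI libraries, miR-10a-5p had an r of -0.63 in TI (rho -0.93) and -0.20 in TIM (rho -0.07), and of -0.76 and 0.34 without the 2 farthest. For miR-10b-5p it was -0.19 (rho -0.64) and -0.27 (rho -0.14), and -0.16 and 0.16 without the 2 farthest, so that the sign in TIM turned for both. The log2 difference of miR-126a-3p in TI was -3.63, against -5.32 for miR-10a-5p. Of the cell type markers only miR-126a-3p was correlated with the members, so that its values cannot be set beside those of other markers. It was not among the 5 miRNAs most like miR-10a-5p, by level or after the group means were subtracted. The part of endothelium, of other tissue and of miR-148a-3p in the levels of the family was not tested.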

How the data were processed

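Small RNA libraries were made from TRIzol-extracted tissue. The deposited values are a signal per mature miRNA and library, given by the authors as TMM-scaled CPM. The submitters' processing notes name cutadapt 2.8, Bowtie2 2.3.5.1, featureCounts 2.0.0, edgeR 3.40 and mm10. The authors also deposited log2 fold changes and p-values of their own comparisons, which were not used. Low values gave the worth of 1 read per library, and 100% of values were whole multiples of it (within 0.1 read), so that reads could be recovered. Labels do not say that libraries of a group are separate from each other beyond their names, and 0 pairs of libraries held identical values.

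Differences and SEs came from limma 3.58.1 (lmFit and eBayes with trend, R 4.3.3) on log2(CPM + 1), which understates changes of low miRNAs, with all 18 libraries in 1 model. Of 1966 miRNAs 726 had at least 1 CPM in at least 3 libraries. The threshold was 0.05 on the Benjamini-Hochberg adjusted p over all 726, and SE values share 1 estimate of the spread. Ratios between members were taken of recovered reads without a pseudocount. The depth gave a value for 3 reads of 0.101 to 0.272 CPM. Alternatives were pseudocounts of 0.1 and 5, other scalings and filters, edgeR 4.0.16 and DESeq2 1.42.0 on recovered reads, and each library left out. The code was tested on simulated reads.

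The members and lists were chosen with earlier results of these data known. Named were the members, all tested members of the Hox, neighbor and miR-99/100 lists, the most abundant markers, and the 5 miRNAs most like each 5p arm. Sequences and coordinates came from RefSeq (GRCm38.p6), which held 1675 of the 1966 mature miRNAs, and introns from GENCODE (GRCm39). Correlations were computed in Python 3.11.15.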

Additional observations from a re-analysis of the deposited data

Results flagged for a closer look

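Within 36 sets of values of 1 tumor group, the highest or lowest library lay farther from the others than Dixon's 95% limit in 8. For independent and normally spread values chance flags about 1 in 20 such sets, which gives 1.8. Levels were checked as CPM and not on the log2 scale, and the 2 arms of a hairpin are not independent. The number of flags therefore cannot be set against that rate, and nothing is read from it. Each value here is the gap to the nearest library as a share of the group's range. In TI the highest library TI 4 stood apart for miR-10b-5p (0.784) and for miR-10b-3p (0.879), with 67849 and 155 CPM. TI 6 had the lowest 5p to 3p ratio of Mir10a in TI (0.799), on 24 passenger reads, and TIM 5 the lowest ratio of Mir10b in TIM (0.690). TI 5 was highest in TI for miR-196a-1-3p (0.755), and TIM 1 was highest in TIM (0.584). TIM 8 was highest in TIM for miR-196a-5p (0.753) and for miR-196a-2-3p (0.760). No library was left out of the reported values for this.

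The differences from AG of 2 other Hox-embedded miRNAs were not the same in the tumor types, by the limma test of TIM against TI. The log2 difference was -4.50 for miR-196a-5p (adjusted p = 0.0014) and -1.47 for miR-196a-2-3p (adjusted p = 0.0021). The first remained past the threshold under all 28 alternatives (adjusted p of 1.2e-05 to 0.035), and the second under all but edgeR on recovered reads (0.056). For miR-196a-2-3p these values rest on CPM below 1 in all TIM and all AG libraries, with a highest value of 0.766 in TIM and 0.416 in AG.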

How the results depend on the processing

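AG, TI and TIM came from mice of different genotypes, so that there were no pairs between groups and no fit with a replicate block was made. All 12 log2 differences of the members kept their direction under every alternative run. With edgeR and DESeq2 on recovered reads the difference of miR-10b-5p became -1.20 and -1.19 for TI against AG, and 0.60 and 0.56 for TIM against TI. With edgeR that of miR-10b-3p became -1.39 and 0.65. The cause was not tested. A pseudocount of 5 lowered the mean log2 ratio of the arms to 7.05 (Mir10a, TI), 7.38 (Mir10a, TIM) and 7.69 (Mir10b, TI), since it is added to low passenger levels.

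Over all miRNAs, the number passing in TIM against TI was 38, and became 21 with a pseudocount of 5, 17 when 10 CPM were required, 155 without the TMM factor, 24 when the third group was dropped, 3 with edgeR, 123 with DESeq2 and 24 to 68 with a library left out. In TIM against AG it was 373, and 227 to 384 with a library left out, lowest without AG 1. For the other Hox-embedded miRNAs the number fell from 2 to 1 in TI against AG with at least 10 CPM, from 3 to 1 in TIM against AG on totals that exclude miR-148a-3p or with edgeR (1 to 4 with a library left out), and from 2 to 1 in TIM against TI with at least 10 CPM or with edgeR. For the miR-99/100 relatives it fell from 4 to 2 in TIM against AG on totals that exclude miR-148a-3p (1 to 4 with a library left out). In TIM against TI it rose from 0 to 2 without the TMM factor, and to 1 with a pseudocount of 0.1, median ratio scaling, totals that exclude miR-148a-3p or DESeq2 (0 to 1 with a library left out). For markers of other cell types it rose from 1 to 4 without the TMM factor and to 8 with DESeq2 in TIM against TI (1 to 2 with a library left out). The causes of these changes were not tested.

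Excluding miR-148a-3p shifted the median log2 difference of all miRNAs by 0.32 in TI and 0.35 in TIM against AG, and omitting the TMM factor by -0.13, 0.23 and 0.42 in the 3 comparisons. The 5 miRNAs most like miR-10a-5p by level shared 1 with those by Spearman's rho and 3 with those without the TMM factor. With 3 AG libraries and none identified by mouse, tumor site and transgene dose could not be examined, and passenger levels in the lowest libraries rest on 10 to 24 reads.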
